A study of Mus musculus with 12 samples.

Results

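Distal regions in exons are the ATAC-seq regions of mouse ES cells whose centre lay more than 1 kb from every annotated transcription start site (TSS) and inside an annotated exon. They were picked by position alone from the authors' merged list on mm10 (GRCm38), with TSSs and exons from GENCODE release M21, on the 19 autosomes. Of 170548 merged regions, 166526 were autosomal and 137895 of these were distal, and 9026 of the distal regions (6.55%, 95% Wilson interval 6.42 to 6.68) were exonic, against 64597 in introns and 64272 between genes. ZHBTc4 cells carry a Tet-Off transgene for *Pou5f1* (OCT4) and 2TS22C cells one for *Sox2*, so that doxycycline (dox) turns off the only source of the factor in each line. ZHBTc4 cells were treated with dox at 1 µg/ml (OCT4 OFF) or left untreated (OCT4 ON) for 24 hr, and 2TS22C cells were treated (SOX2 OFF) or left untreated (SOX2 ON) for 26 hr or 40 hr, all in serum with LIF and 2 kinase inhibitors (S2iL). This gives 12 libraries in 6 groups of 2. The list joins the peaks of both lines and holds positions only. Whether peaks of a published dataset of ZHBTc4 cells in serum and LIF also entered it is not given in the sources used here. The list is pooled, so no value below belongs to a line, a treatment or a replicate, and the depth behind each region is unknown.

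ATAC-seq uses a transposase that cuts DNA which is not wrapped in a nucleosome or covered by other proteins, and most such sites away from promoters are enhancers and insulators in introns and between genes. An exon is the part of a gene kept in the mature RNA. It holds coding sequence, which is under selection for the protein and is richer in G, C and CpG than introns, or untranslated sequence (UTR) before or after it. An exon can carry a regulatory element of its own gene or of a neighbour, and an annotated exon of one transcript can also lie next to a start site that the annotation does not list. As a check of the rule on another annotation, 283 of the 9026 regions (3.14%) lay within 1 kb of any RefSeq TSS, and 50 (0.554%) within 1 kb of a curated one. The median distance to the nearest GENCODE TSS was 5205.5 bp, and 7279 regions were more than 2 kb away.

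The kinds of sequence found at the centres of these regions are shown first with coding regions whose motif match lay closest to the region centre. All windows are 30 bases of GRCm38, read 5′ to 3′ on the strand given, with the match in capitals. CTCF is the main insulator protein and binds a long GC-rich site, and its exact match was found in the central 200 bp of 61 of 4262 coding regions. It is shown in regions centred on internal coding exons of *Dmrt1* (a testis and germ cell factor, chr19:25545846-25545875, plus strand), *Pald1* (chr10:61344156-61344185, minus strand) and *Dglucy* (chr12:100841399-100841428, minus strand), and on the last exon of *Gpr153* (an orphan receptor, chr4:152283370-152283399, minus strand):
Dmrt1: ctgctgtcaCCAGCAGAGGGCatatggaga
Pald1: gcaagctgtCCAGCAGAGGGCgctgtggag
Dglucy: tcattgtgaCCACCAGAGGGCagcagaagc
Gpr153: tgcgtacggCCACCAGGGGGCgttgggacc

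The OCT4::SOX2 composite site, on which both factors bind side by side in ES cells, was found with at most 2 mismatches in 6 of the 4262 coding regions. The closest to a region centre were in regions centred on internal coding exons of *Rnf213* (a large ubiquitin ligase, chr11:119483849-119483878), *Btaf1* (a regulator of the TATA-binding protein, chr19:36958455-36958484), *Commd7* (chr2:153622702-153622731) and *Noc3l* (chr19:38814139-38814168), all on the plus strand, without a check that the match ends within the exon:
Rnf213: gaaattgATGTGCAATACAAAGaggagctc
Btaf1: ccaagttATTTGCAAAACAGAGatccaggg
Commd7: gaaggatATTAACATAACAAAGagctcacg
Noc3l: gggacagATTTACATATCAAAGccatgaca

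Zinc finger genes of the C2H2 kind encode tandem fingers joined by a short conserved linker, and the 15 bases that encode the linker recur along the last exon of many of these genes. Such a linker match was found in the central 200 bp of 96 of 225 coding regions in zinc finger genes. The matches closest to a centre lay in regions centred on the last exons of *Zfp386* (chr12:116060196-116060225, plus strand), *Zfp184* (chr13:21959796-21959825, plus strand) and *Zfp689* (chr7:127444502-127444531, minus strand) and on an internal exon of *Ikzf4* (a lymphoid factor of the Ikaros family, chr10:128640207-128640236, minus strand), shown on the strand of the gene:
Zfp386: aattcatACTGGAGAGAAACCTtacaaatg
Zfp184: aatccatACTGGTGAAAGACCTtacaagtg
Zfp689: gcatccatACTGGAGAGAAGCCTtacccat
Ikzf4: agctgcacTCGGGGGAGAAGCCCttcaagt

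Coding sequence held the largest share of the exonic regions and 5′ UTRs the smallest. Of the 9026 regions, 4262 (47.2%, 95% interval 46.2 to 48.3) were centred on coding sequence, 2548 (28.2%) on 3′ UTR, 2154 (23.9%) on exons of noncoding transcripts and 62 (0.687%) on 5′ UTR. The noncoding class was made of 881 regions in long noncoding RNA genes, 744 in retained introns of coding genes, 232 in unclassified transcripts that await experimental support (TEC), 162 in other transcripts of coding genes and 135 in pseudogenes. By the rank of the exon in its transcript, 5149 regions (57.0%) lay in a last exon, 3100 (34.3%) in an internal exon, 651 in a single-exon transcript and 126 in a first exon. Among coding regions 2750 (64.5%) were in internal exons and 1390 (32.6%) in last exons. Of the 24.1 Mb of coding sequence over 1 kb from every TSS, 18.2 Mb was in internal and 5.38 Mb in last exons. Of the 3′ UTR regions 2474 (97.1%) were in last exons, as was 28.7 of 29.7 Mb of such 3′ UTR sequence. The share of all exon sequence by rank is not given here.

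A centre in an exon did not mean that a region ended at the exon. The median region had all of its bases in exonic sequence, but in internal coding exons the median share was 64.1%. Of these 2750 regions, 1428 (51.9%) held the whole exon and 514 (18.7%) lay inside the exon. In last coding exons 759 of 1390 regions (54.6%) lay inside the exon and 65 (4.68%) held all of it.

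Per Mb of sequence, coding exons held more regions than any other class. Densities count region centres per Mb of assembled autosomal bases more than 1 kb from every TSS, of which exons make up 3.6%. The density was 177 in coding sequence, 98.0 in 5′ UTR, 85.8 in 3′ UTR and 81.7 in noncoding exons, against 67.0 in introns and 53.6 between genes. All exons together had 112 regions per Mb, 1.67 times the intronic density, and the ratio ranged from 1.36 to 2.02 over the autosomes and was above 1 on 19 of 19 (exact two-sided sign test over autosomes, p = 3.8e-06, the smallest it can give; adjusted p = 1.1e-05 over 49 tests by Benjamini-Hochberg). Coding sequence alone was 2.64 times as dense as introns on 19 of 19 autosomes (exact p = 3.8e-06, adjusted p = 1.1e-05). For 3′ UTRs the ratio was 1.28, above 1 on 18 of 19 autosomes (exact p = 7.6e-05, adjusted p = 0.00015), and for noncoding exons 1.22 on 19 of 19. Autosomes are blocks of the same pooled list and not replicates of a condition.

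**Figure D1:**
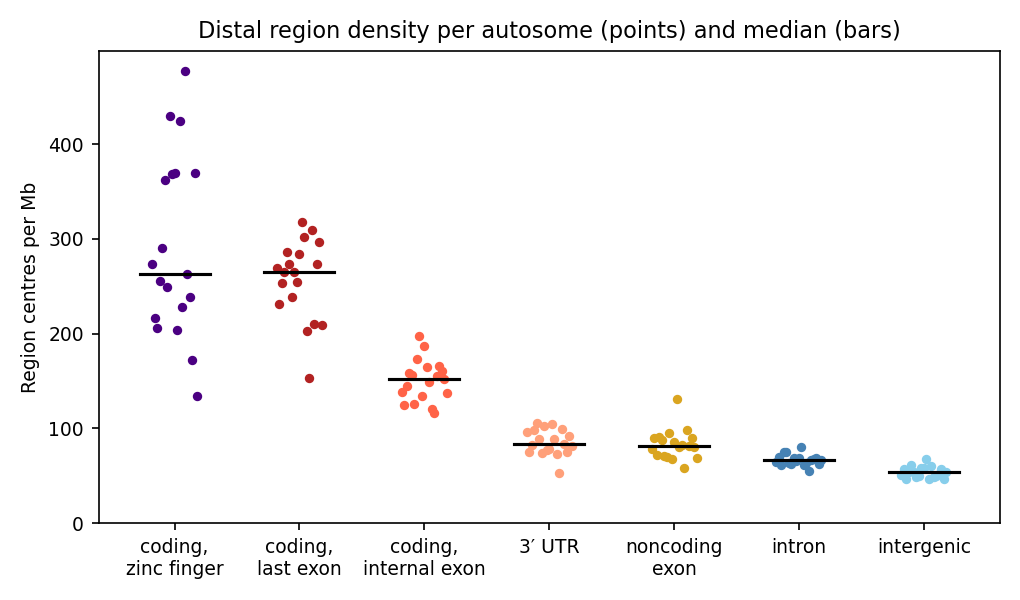
Distal region centres per Mb of eligible sequence (y axis) by annotation class (x axis), 1 point per autosome and a bar at the median. Coding sequence of last exons lies between 153 and 318 regions per Mb and introns between 55.4 and 80.8, without overlap, while 3′ UTRs (52.9 to 106) and noncoding exons (58.1 to 131) overlap the introns.

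GC content moved with these densities. Intronic density went from 19.6 regions per Mb where the sequence within 150 bp held 35 to 40% GC to 98.5 at 45 to 50%, 258 at 55 to 60% and 626 at 65 to 70%, and coding density from 30.9 through 99.0 and 281 to 1154 in the same bins. The mean GC content around eligible bases was 49.1% in coding sequence, 42.9% in 3′ UTR, 43.0% in noncoding exons and 42.3% in introns. When intronic densities were applied to the exonic bases by GC bin, exons held 1.09 times the expected number of regions, with a range of 0.862 to 1.41 over autosomes and values above 1 on 15 of 19 (exact sign test p = 0.019, adjusted p = 0.025). The intronic density of each bin was pooled over all autosomes, so the value of an autosome also carries its own level of density. The ratio at the same GC was 1.11 for coding sequence (16 of 19, exact p = 0.0044, adjusted p = 0.006). It was 1.07 for 3′ UTR (12 of 19, exact p = 0.36, adjusted p = 0.37) and 1.1 for noncoding exons (14 of 19, exact p = 0.064, adjusted p = 0.074), neither of which passed the test.

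**Figure D2:**
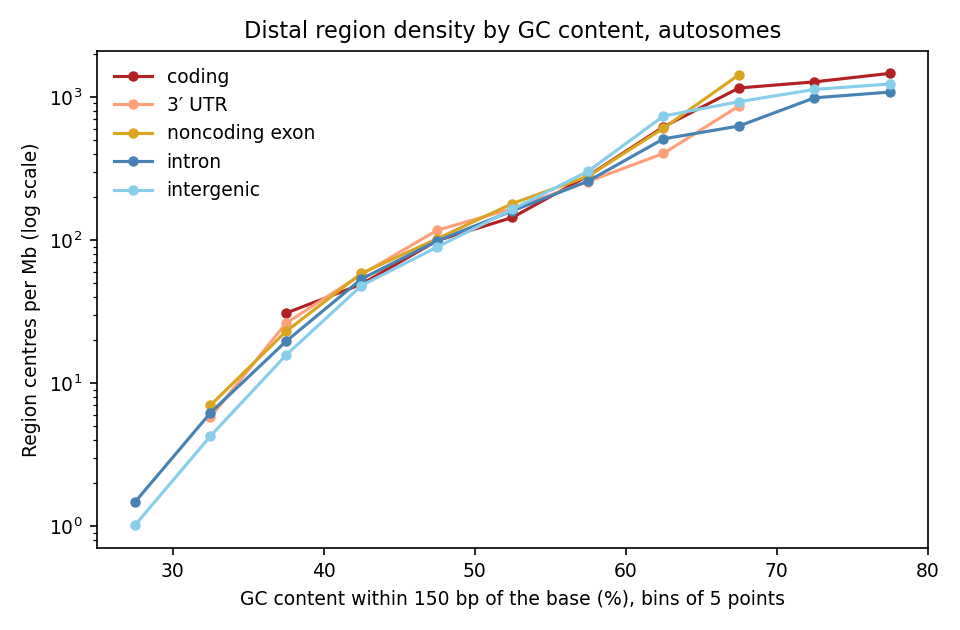
Distal region centres per Mb (y axis, log scale) against the GC content within 150 bp of the base (x axis, bins of 5 percentage points) for 5 annotation classes on autosomes, in bins that hold at least 10 regions. Intronic density climbs from 1.48 per Mb at 25 to 30% GC to 1080.6 at 75 to 80%, and the exonic classes follow the same curve, with coding sequence at 144 against 160 for introns at 50 to 55% and at 1154 against 626 at 65 to 70%.

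CpG number changed the direction of the comparison. Coding bases with 8 or more CpGs within 150 bp made up 30.4% of eligible coding sequence and held 71.2% of coding regions, whereas in introns such bases made up 3.35% and held 15.4% of regions. With strata of GC and CpG number together, exons held 0.899 of the number expected from introns, above 1 on 5 of 19 autosomes (exact p = 0.064, adjusted p = 0.074). Coding sequence was at 0.797, above 1 on 2 of 19 autosomes (exact p = 0.00073, adjusted p = 0.0011), while 3′ UTRs were at 1.01 and noncoding exons at 1.03. Coding exons thus held more regions per Mb than introns, slightly more at matched GC, and fewer with strata of GC and CpG number. Bases with 11 or more CpGs within 150 bp were not divided further by CpG number. They held 53.0% of coding and 6.56% of intronic regions, at 669 and 524 per Mb, so CpG number was not fully matched there. Sequencing and transposition can favour some base compositions, and their part in these densities was not tested.

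Within coding sequence, last exons were denser in regions than internal exons. The densities were 258 and 151 per Mb, a ratio of 1.71 that ranged from 1.27 to 2.18 and was above 1 on 19 of 19 autosomes (exact p = 3.8e-06, adjusted p = 1.1e-05). At the same GC the ratio was 1.22 (17 of 19, exact p = 0.00073, adjusted p = 0.0011), and at the same GC and CpG number it was 1.12, above 1 on 14 of 19 autosomes, which did not pass the test (exact p = 0.064, adjusted p = 0.074). Density also went with exon length. Internal coding exons of up to 150 bp held 94.6 regions per Mb, those of over 150 to 300 bp 154, those of over 300 to 1000 bp 306 and longer ones 223, at 0.8, 1.0, 1.47 and 1.14 times the intronic density at the same GC. Last coding exons over 1000 bp held 1141 of the 1390 last-exon regions and 4.18 of 5.38 Mb of eligible last-exon coding sequence. Their density was 273 per Mb, 1.42 times the intronic density at the same GC. Last exons of over 300 to 1000 bp held 223 per Mb and those of over 150 to 300 bp 134, below internal exons of the same lengths. Those of up to 150 bp held 165 per Mb, from 6 regions. Exon length is that of the whole exon, with any UTR. Last against internal exons at the same length was not tested.

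Density along the genome was then taken around stop codons, transcript ends and internal coding exons, with introns included. In the 400 bp before the stop codon there were 194 region centres per Mb, against 121 from 1000 to 500 bp before it, 122 in the 200 bp after it and 79.8 from 200 to 600 bp after it. GC content in these spans was 48.4%, 46.0%, 46.2% and 44.1%. The highest bin, 218 per Mb from 250 to 200 bp before the stop codon, had 40.1% of its eligible bases in exons. In the 50 bp before the stop codon, 93.8% exonic, the density was 151 per Mb. Transcript ends were low in regions, with 77.0 per Mb in the last 250 bp and 60.1 in the 200 bp downstream, against 125 from 1000 to 500 bp upstream and 118 from 500 to 1000 bp downstream. GC content was 42% in the last 250 bp, 43.6% in the 200 bp downstream and 44.7% from 500 to 1000 bp downstream. The lowest density, 49.9 per Mb from 50 to 100 bp downstream, stood at 44.1% GC, and the lowest GC content, 34.6% in the last 50 bp, at 83.0 regions per Mb. GC content here is that of the bin itself and not of the sequence within 150 bp. Its part in the low density at transcript ends was not tested. Around internal coding exons of 50 to 300 bp the density was 111 per Mb within 100 bp of the middle and 79.6 and 85.1 at 500 to 1000 bp on either side. The highest bin was not at the middle. It was 121 per Mb from 50 to 100 bp downstream, where 42.1% of eligible bases were exonic. The 50 bp before and after the middle, 93.5% and 94.4% exonic, had 109 and 107 per Mb. The eligible bases in these profiles are of any annotation class, all more than 1 kb from a TSS.

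**Figure D3:**
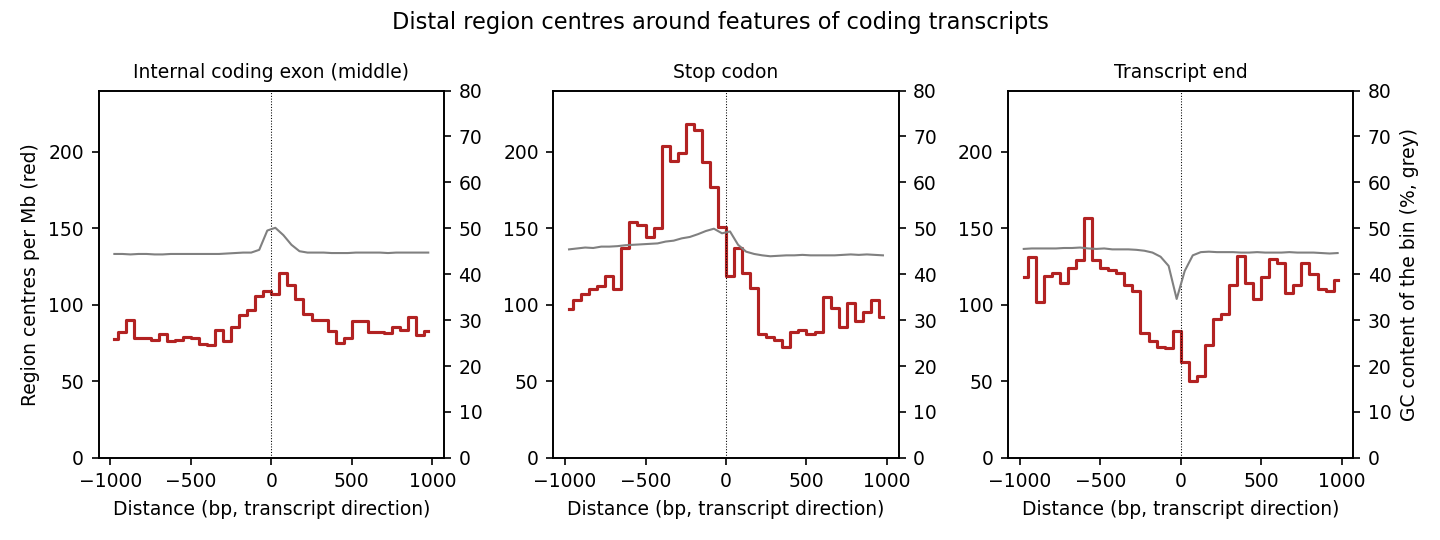
Distal region centres per Mb (red, left axis) and GC content in percent (grey, right axis) in bins of 50 bp around the middle of internal coding exons, the stop codon and the transcript end, in the direction of transcription and over all autosomes. Density peaks before the stop codon (194 per Mb over the 400 bp before it) and is low around the transcript end, lowest at 49.9 per Mb from 50 to 100 bp after it at 44.1% GC, while GC content is lowest (34.6%) in the 50 bp before it, at 83.0 per Mb.

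Exonic regions were wider than intronic ones, and coding regions had the highest median width. The median width was 385 bp (quartiles 223 and 626) in exons and 336 bp (211 and 540) in introns, wider by 16 to 109 bp on 19 of 19 autosomes (exact p = 3.8e-06, adjusted p = 1.1e-05). Coding regions had a median of 433 bp and were 87 bp wider than 3′ UTR regions (346 bp), on 18 of 19 autosomes (exact p = 7.6e-05, adjusted p = 0.00015). The 3′ UTR regions were 10 bp wider than intronic ones on 10 of 19 autosomes (exact p = 1), and noncoding exon regions 24 bp wider on 14 of 19 (exact p = 0.064, adjusted p = 0.074). Regions in last coding exons were wider than those in internal ones, with a median of 513 bp against 384 bp (wider on 18 of 19 autosomes, exact p = 7.6e-05, adjusted p = 0.00015). Of the regions in last coding exons, 16.9% were over 1000 bp, against 5.96% of internal and 3.88% of intronic regions.

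Coding regions were also the richest in GC and CpG. Median GC content was 52.9% in exonic regions and 48.2% in intronic ones, higher on 19 of 19 autosomes by 2.45 to 6.22 percentage points, and 56.9% in coding, 53.5% in 5′ UTR, 50.3% in 3′ UTR and 49.3% in noncoding exon regions. The ratio of observed to expected CpG, which is low in most of the mouse genome because methylated CpG is lost over evolution, had a median of 0.339 in exonic and 0.212 in intronic regions (higher on 19 of 19 autosomes, by 0.0911 to 0.156; exact p = 3.8e-06, adjusted p = 1.1e-05). It was 0.439 in coding regions, 0.49 in those of last coding exons, 0.252 in 3′ UTR regions and 0.255 in noncoding exon regions. Regions with at least 55% GC and a ratio of at least 0.6, the composition of a CpG island, made up 795 of 4262 coding regions (18.7%, 95% interval 17.5 to 19.9), 374 of 1390 in last coding exons (26.9%) and 676 of 64597 in introns (1.05%). Soft-masked repeats covered a median of 3.32% of coding, 8.1% of 3′ UTR and 12.4% of intronic regions.

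**Figure D4:**
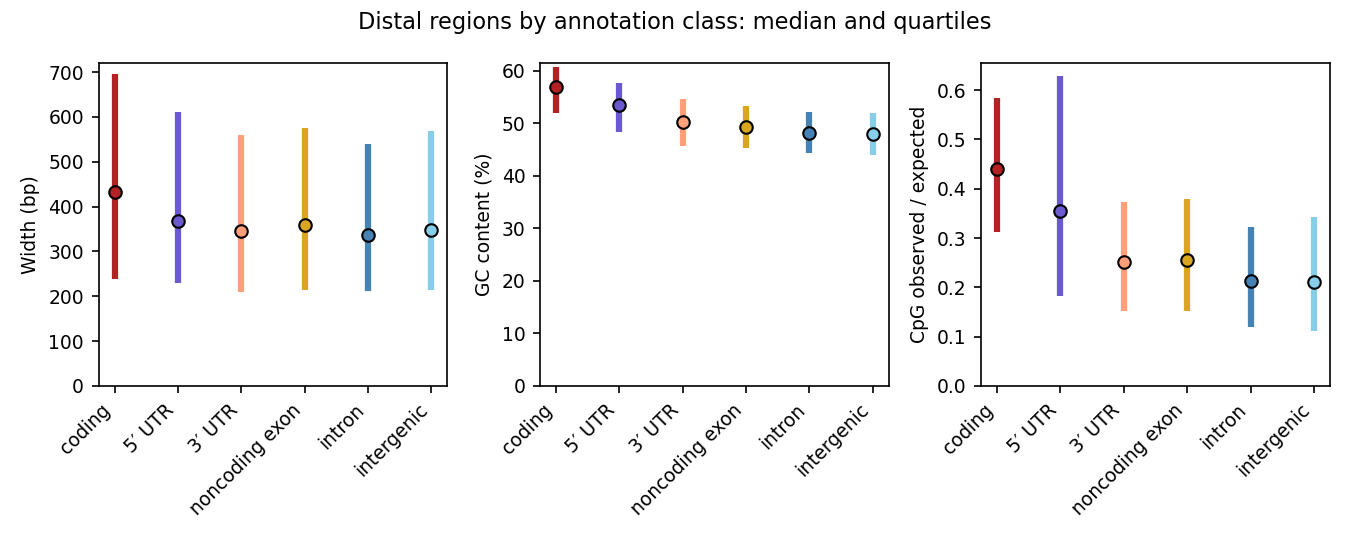
Width (bp), GC content (%) and observed to expected CpG (y axes) of distal regions by annotation class (x axis); points are medians and bars span the quartiles over regions. Coding regions have the highest median in all 3 panels (433 bp, 56.9% and 0.439), and the quartile ranges of all classes overlap in width.

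Among the coding regions of this composition, those with the most CpGs per 100 bp were the following. A region of 452 bp in an internal exon of *Srrm3*, a splicing factor of neurons (chr5:135868099-135868550), held 14.8 CpGs per 100 bp at 76.5% GC. *Ano8*, a membrane protein of the anoctamin family, had 14.5 CpGs per 100 bp over 857 bp centred on its last exon (chr8:71476108-71476964). The other regions were in *Neurl1b*, a ubiquitin ligase of Notch signalling (96 CpGs in 686 bp), *Dact3*, a regulator of Wnt signalling with a region of 1501 bp (13.8 per 100 bp), and the protocadherin *Pcdh8* (13.4 per 100 bp). The median over coding regions was 3.43 CpGs per 100 bp. These genes are the top 5 of the class by that value, so their values are a description.

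The widest regions of each class were as follows. Among coding regions they were 3245 bp in *Prob1*, 2797 bp in *Foxb1*, a forkhead factor of the developing brain (chr9:69758535-69761331), and 2627 bp in *Sstr1*, a somatostatin receptor, at 56.8 to 64.9% GC with observed to expected CpG of 0.561 to 0.773. The *Prob1* and *Foxb1* regions were centred 1316 and 1007 bp from the nearest TSS and are wide enough to cover it. In 5′ UTRs the widest regions were 2588 bp in *Adamts5*, a protease of cartilage matrix, 1874 bp in *Nhlh2*, a helix-loop-helix factor of neurons, and 1367 bp in *Zkscan7*, at 52.0 to 62.0% GC. In 3′ UTRs they were 2269 bp in *Sema6c*, a semaphorin, 2168 bp in *Fbrsl1* and 2099 bp in *Cers1*, a ceramide synthase, at 59.2 to 66.5% GC. The widest noncoding exon region, 4696 bp, was at *Cwc22*, a splicing factor whose locus is present in extra copies in some mouse strains, and had 40.0% GC, with 29.6% of its bases in exons. The next was 3738 bp in *Gm13147* at 34.7% GC, which held a zinc finger linker match, and the third was 2576 bp in *AC141471.6* at 64.5% GC with observed to expected CpG of 0.729.

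The 62 regions in 5′ UTRs had the highest share near start sites of the other annotation. Their median distance to a GENCODE TSS was 3137 bp, against 3134 bp for noncoding exon, 5630.5 bp for coding and 6596 bp for 3′ UTR regions. Of these 62 regions, 15 (24.2%, 95% interval 15.2 to 36.2) lay within 1 kb of a RefSeq TSS and 8 (12.9%) within 1 kb of a curated one. In the coding class 3.71% lay within 1 kb of any RefSeq TSS, and in the 3′ UTR class 1.06%. Most 5′ UTR regions, 44 of 62, were in internal exons, as was 0.451 of 0.633 Mb of eligible 5′ UTR sequence.

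Coding exons of zinc finger genes held more regions than other coding exons. Genes were taken by symbol (Zfp, Zscan, Zkscan, Zbtb, Klf, Prdm, Ikzf and related names), and 225 coding regions lay in 190 of these genes. The density was 270 per Mb of their coding sequence against 174 in other genes, a ratio of 1.55 with a range of 0.852 to 3.89 over autosomes and above 1 on 17 of 19 (exact p = 0.00073, adjusted p = 0.0011). It was 1.48 at the same GC (17 of 19, exact p = 0.00073, adjusted p = 0.0011) and 1.31 at the same GC and CpG number (16 of 19, exact p = 0.0044, adjusted p = 0.006). Of the 0.834 Mb of eligible coding sequence in zinc finger genes, 0.563 Mb was in last exons, and 157 of the 225 regions lay there. Among last coding exons alone the density was 279 per Mb in zinc finger genes and 256 in others, a ratio of 1.09 on 13 of 19 autosomes (exact p = 0.17, adjusted p = 0.19), with mean GC content of 46.9% and 51.0%. Among internal coding exons it was 246 against 150, a ratio of 1.64 on 13 of 19 (exact p = 0.17, adjusted p = 0.19). Neither within-rank ratio passed the test.

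Regions in zinc finger coding exons split by the linker match. Of the 225 regions, 96 (42.7%, 95% interval 36.4 to 49.2) held at least 1 linker match on the gene's strand in the central 200 bp, as did the 200 bp around 30.0% of eligible coding bases of these genes. The density was 384 regions per Mb where a linker match was near and 221 where none was. In other genes 21 of 4037 regions (0.52%) held such a match, and 0.411% of coding bases had one nearby. Regions with a match had a median width of 656 bp and 50.8% GC, and those without had 480 bp and 58.2%. The highest number of linker matches was 3, found among others in the *Zfp386* region shown above, of 313 bp at 41.5% GC, and in the *Zfp689* region, of 957 bp at 61.7% GC. Tandem fingers are near-identical within and between these genes, so reads there may be shared between copies, and how reads with several alignments were treated is not given in the sources used here.

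Zinc finger regions were spread over all autosomes, with 45 of 225 on chromosome 7 and 20 on chromosome 4. Per Mb of zinc finger coding sequence this was 249 on chromosome 7 and 256 on chromosome 4, against 270 over all autosomes. The genes with most coding regions were *Prdm10* and *Zfp609*, with 4 each, followed by *Zbtb20*, *Zbtb7c* and *Zfp827* with 3 each. The 4 *Prdm10* regions were 136 to 430 bp wide and those of *Zfp609* 208 to 822 bp, at a median GC of 56.5% and 56.8%. *Ctcfl*, the germline paralogue of CTCF, held regions of 160 and 1134 bp, and *Prdm9*, which places recombination sites in meiosis, held regions of 263 and 290 bp at a median GC of 45.8%.

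Other gene families, grouped by symbol, differed in density over all of their exon sequence. Protocadherins, cell adhesion proteins of neurons, held 54 regions in 48 of 65 genes, 275 per Mb. Hox genes, which pattern the body axis, held 13 regions in 13 of 38 genes (277 per Mb over 0.0469 Mb). Olfactory receptors held 66 regions in 59 of 1042 genes, 30.6 per Mb. Collagens were at 83.0 and keratins at 105, against 118 over all protein-coding genes, of which 5581 of 19667 (28.4%) held a region. Ribosomal protein genes held 13 regions in 7 of 60 genes, 158 per Mb, and histone genes, named by the Hist prefix, held 2 regions in 2 of 18 genes. These are counts without a test, and families with little eligible sequence rest on few regions.

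CTCF matches were more frequent in 3′ UTR regions than in coding ones. Both strands of the middle 200 bp of every region were scanned, and windows of equal width 1 kb away on either side serve as background. An exact CTCF match was found in 98 of 2548 3′ UTR regions (3.85%, 95% interval 3.17 to 4.66), 56 of 2154 noncoding exon regions (2.6%), 61 of 4262 coding regions (1.43%, 1.12 to 1.83) and 2.57% of all 137895 distal regions, against 0.137%, 0.0464%, 0.211% and 0.13% of their flanks. The share in 3′ UTRs was higher than in coding regions on 18 of 19 autosomes (2.41 percentage points, exact p = 7.6e-05, adjusted p = 0.00015). It was 1.27 points above introns on 15 of 19 (exact p = 0.019, adjusted p = 0.025), and intronic regions at the GC content of the 3′ UTR regions had 2.56%. The coding share differed from the intronic share by -1.15 points and was higher on 2 of 19 autosomes (exact p = 0.00073, adjusted p = 0.0011), with 2.07% in introns at their GC. For all exonic regions together the share was 2.39% against 2.58% in introns, higher on 7 of 19 autosomes (exact p = 0.36, adjusted p = 0.37), and did not pass the test.

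Without regard to GC content, elements of the pluripotency factors were rarer in coding regions than in introns. The OCT4::SOX2 match was in 6 of 4262 coding regions (0.141%, 95% interval 0.0645 to 0.307), 8 of 2548 in 3′ UTR (0.314%) and 14 of 2154 in noncoding exons (0.65%), against 0.738% of intronic regions and 0.755% of all distal regions. Coding regions were lower than introns on all but 1 of 19 autosomes (exact p = 7.6e-05, adjusted p = 0.00015), and the intronic share at their GC content was 0.253%, within the interval of the coding share. The octamer ATGCAAAT, whose reverse complement is the first part of the composite site, was in 0.446% of coding and 2% of intronic regions (0.985% at the coding GC) and in 0.903% of coding flanks, so that coding centres were below their flanks. In noncoding exons the octamer was in 2.23% of centres and 0.975% of flanks. The SOX element CATTGTT, which can overlap the second part of the composite site, was in 2.3% of coding and 4.66% of intronic regions (2.26% at the coding GC). GGGNGTGG of KLF factors was in 7.53% against 10.1% (12.7% at the coding GC), and TCAAGGTCA of ESRRB in 0.634% (95% interval 0.436 to 0.92) against 1.48% (0.727% at the coding GC, within the interval). All of these passed the test across autosomes for coding against intronic regions, the highest exact p being 0.00073 (adjusted p = 0.0011). These tests do not take GC content into account.

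For the remaining motifs, the GC-rich AP-2 palindrome GCCNNNGGC was in 14.2% of coding and 7.25% of intronic regions, higher on 19 of 19 autosomes (exact p = 3.8e-06, adjusted p = 1.1e-05), and introns at the coding GC content had 15.1%. TGANTCA of AP-1 was in 3.1% of coding and 7.68% of intronic regions, with 5.55% in introns at the coding GC and 5.28% in the coding flanks. AAGATGGCG of YY1 was in 0.446% of coding and 0.907% of intronic regions, and introns at the coding GC had 6.16%. GCGCATGCG of NRF1, a factor of CpG-rich promoters, was in 17 coding regions (0.399%) and 0.118% of intronic ones, higher on 12 of 19 autosomes, which did not pass the test (exact p = 0.36, adjusted p = 0.37). A match is a string of letters and does not show binding.

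**Figure D5:**
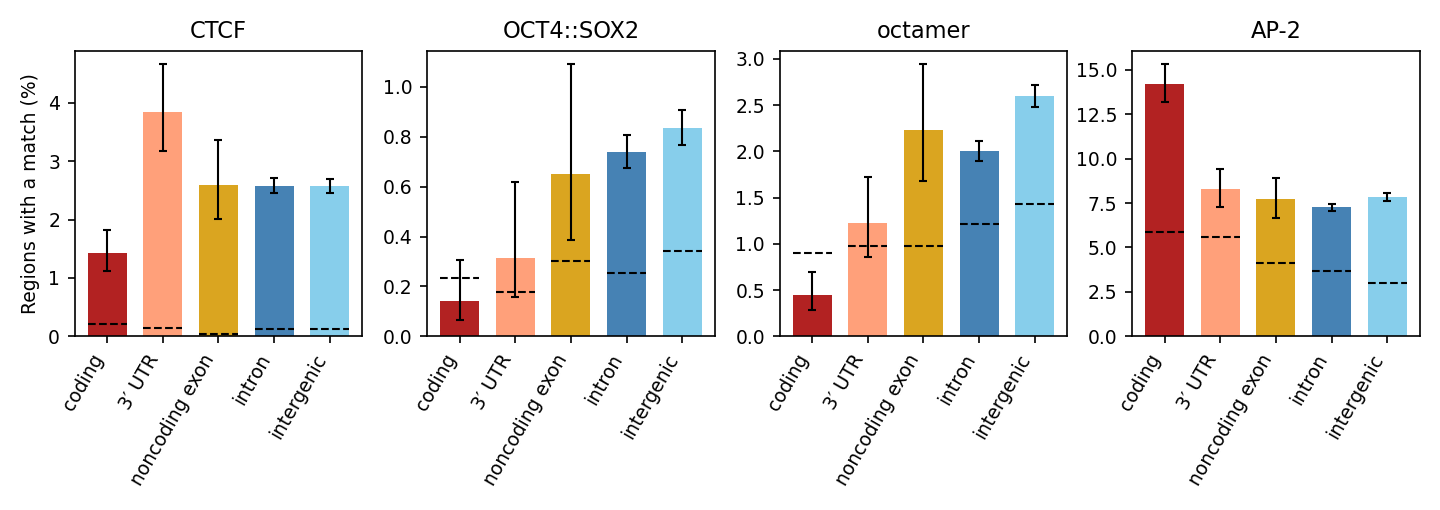
Share of distal regions (%, y axes, each panel with its own scale from 0) with a match in the central 200 bp, by annotation class (x axes); error bars are 95% Wilson intervals over regions, and dashed lines are the mean share in windows 1 kb to either side. CTCF is highest in 3′ UTRs (3.85%), among the 5 classes drawn OCT4::SOX2 (0.141%) and the octamer (0.446%) are lowest in coding regions, with the flank line inside the interval for OCT4::SOX2 and above it for the octamer, and AP-2 is highest in coding regions (14.2%).

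The 9026 regions lay in 6692 genes, 5068 of them with 1 region and 1624 with 2 or more. *Ttn*, which encodes the giant muscle protein titin, held the most, 8 regions, but in 107985 bp of eligible exon sequence this was 74.1 per Mb, below the density of all exons. *Sptbn4*, a spectrin of axons, held 7 regions in 7226 bp (969 per Mb), all in internal coding exons, with a GC content of 56.6 to 69.3%. Its 3 most CpG-rich regions were 391, 874 and 1037 bp wide with 10.2 to 11.8 CpGs per 100 bp, and the regions of 874 and 1037 bp, centred on exons of 751 and 934 bp, had 85.5% and 90.1% of their bases in exons. *Prag1*, a pseudokinase of cell shape signalling, held 7 regions at 741 per Mb, and *Cit*, the citron kinase of cytokinesis, 7 at 722 per Mb. *Cit* had a CTCF match in the centre of 1 region, 870 bp wide at chr5:115979056-115979925. *Dst*, a cytoskeletal linker, held 7 regions at 218 per Mb, of which 1 of 487 bp at chr1:34218259-34218745 had a CTCF match.

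Of 34 genes of a pluripotency list with eligible exon sequence, 19 (55.9%) held 27 distal exonic regions, against 28.4% of all protein-coding genes with a region. The density was 216 per Mb against 118 over all protein-coding genes. These differences were not tested and not matched for base composition. Neither *Pou5f1* nor *Sox2* was among the 19 genes. *Tet1*, which oxidizes methylated cytosine, held 5 regions of 158 to 545 bp, 1 in 5′ UTR, 3 in coding sequence and 1 in 3′ UTR, and *Tet2* held 3 of 171 to 340 bp. *Klf4*, a core factor of the ES cell state, held a coding region of 627 bp at chr4:55530297-55530923 with 66.0% GC and observed to expected CpG of 0.706, centred 1160 bp from the nearest TSS. *Klf5*, its close relative, held 389 bp of coding sequence and 549 bp around 3′ UTR sequence. *Zfp42*, the ES cell marker REX1, held 526 bp of its last coding exon (chr8:43295787-43296312) with 54.0% GC, and the zinc finger gene *Rex2* held 706 bp at 38.4% GC with 2 linker matches and 75.2% of its bases soft-masked. *Sall4*, a zinc finger factor of ES cells, held regions of 333 and 209 bp, and the second had 1 linker match.

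The other genes of the list that held a region had 1 each. In coding sequence these were *Dppa3* (518 bp), *Esrrb* (165 bp, 10070 bp from the nearest TSS), *Lin28a* (126 bp), *Mycn* (198 bp), *Prdm14* (480 bp), *Tbx3* (204 bp) and *Zfp57* (240 bp). In 3′ UTRs they were *Nanog* (142 bp at chr6:122714389-122714530, 35.9% GC), *Stat3* (227 bp), *Fgf4* (731 bp), *Il6st* (488 bp) and *Dnmt3a* (238 bp). The *Fgf4* region, at chr7:144864229-144864959, was the widest of the 27 and had 0.547 CpGs per 100 bp. None of the 27 held an exact CTCF or an OCT4::SOX2 match in its central 200 bp. The OCT4::SOX2 string has its octamer and SOX parts side by side, so composite sites with another spacing were not searched for.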

How the data were processed

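ATAC-seq of 12 libraries was aligned by the authors to mm10 (GRCm38) with STAR 2.6.1c, duplicates were removed with Picard, peaks were called with MACS2 2.1.1.20160309 on paired-end fragments, and peaks from both lines were merged with BEDTools. The deposited values are positions in bp (chromosome, start, end), with no score, read number or column of a single sample. Whether peaks were called per replicate is not given in the sources used here. The paper also removed peaks above a width limit, peaks that overlapped Input peaks and blacklisted peaks. It is not given whether the deposited list is the one before or after these steps. The widest distal intronic region in it spanned 58315 bp.

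Every base of the autosomes of GRCm38 was assigned once, with GENCODE M21, to coding sequence, 5′ UTR, 3′ UTR, noncoding exon, intron or intergenic sequence in that order, and within a class to the longest spliced transcript, which gave the rank of the exon. The authors used another annotation release. Regions took the class of their centre, and only the centre had to be distal, so a wide region can reach a TSS. GC content was taken within 150 bp of each base in bins of 5 percentage points. CpG number was counted in the same window, with 11 or more as 1 class. Expected numbers at matched GC or CpG number used densities of the comparison class pooled over all autosomes. Their sign tests are therefore not comparisons within an autosome. Medians, densities and motif shares were compared by an exact two-sided sign test over 19 autosomes with Benjamini-Hochberg adjustment over 49 tests, at a threshold of 0.05. Intervals are 95% Wilson intervals over regions, which are not replicates and cover counting error only. Coordinates are counted from 1.

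The members, the gene lists and the tests were chosen with earlier results of these data known, and the tests of single exon classes, within exon ranks, of last against internal and zinc finger against other exons at matched composition, of GC content and of CTCF in 3′ UTRs were added after values were seen. Named genes were those with most regions, the 3 widest regions of each class, the 5 coding regions with most CpG, the 4 coding matches closest to a region centre off chromosome 18, the zinc finger genes with most coding regions, and the pluripotency list. Classification was tested on simulated data (3000 of 3000 positions and 677 of 677 planted motifs recovered). The tools were SciPy 1.17.1, statsmodels 0.14.6, NumPy 2.4.6 and matplotlib 3.10.9 under Python 3.11.15, with pandas 2.3.3.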

Additional observations from a re-analysis of the deposited data

How the results depend on the processing

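No paired analysis was possible because all samples are pooled in 1 list, which has no value per replicate. For the same reason no library could be left out, and depth is unknown. Of 53 tested values recomputed under other annotation, distance, width, repeat and window settings, 50 kept their direction and their side of the threshold. The density of exons against introns at the same GC was 1.09 with exons of protein-coding transcripts only, where it no longer passed the test (13 of 19 autosomes, exact sign test p = 0.17), and 1.04 outside soft-masked sequence (10 of 19, exact p = 1). With GC and CpG number together it was reversed, at 0.899 (5 of 19, exact p = 0.064), while with GC within 500 bp it was 1.24 (18 of 19, exact p = 7.6e-05). Of 10 tested values under alternatives chosen after seeing the data, 8 kept direction and side. The density of last against internal coding exons was 1.12 at the same GC and CpG number (exact p = 0.064). The CTCF share of exonic minus intronic regions, -0.188 percentage points, was reversed to 0.0674 with the intronic share at the GC of the exonic regions (exact p = 0.65), and neither value passed the test. The cause of these changes was not tested beyond the matching itself. The number of distal exonic regions ranged from 6784 with protein-coding transcripts only to 9132 with the X chromosome added. The zinc finger ratio was 1.44 when genes were defined by at least 3 C2H2 patterns in the translated coding sequence (18 of 19, exact p = 7.6e-05) and 1.57 without chromosome 4. The planned definition from a table of proteins was not run, as such a table was not used here.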
